A study of Mus musculus with 28 samples.

Results

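The regions described here lie at and around 9 mouse genes that set, copy and remove DNA methylation. They are Dnmt1, Uhrf1, Dnmt3a, Dnmt3b, Dnmt3l, Tet1, Tet2, Tet3 and Tdg. The genes were chosen by name and role from 21887 protein-coding genes, with earlier results of these data known, and all 9 were found in the gene table. The rule that picks them uses no measured value. Each was taken with its gene body, from one annotated end to the other, and 50 kb either side, a stretch called the window below. The windows held 14 of the 5446 deposited H3.3 regions and 156 of the 57857 deposited H3K27ac regions.

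Chromatin was mapped by CUT&RUN, in which an antibody holds a nuclease at its target in intact nuclei and the DNA cut free is sequenced. The cells were ES-E14TG2a, a male mouse embryonic stem cell line grown on gelatin in serum medium with LIF. A medium with LIF and inhibitors of GSK and MEK is also described, and the labels do not tie a medium to a library. The series title names the mutation H3.3K122A, a change of a lysine of the histone variant H3.3 to alanine, and an A in a genotype name marks an allele so labelled of H3f3a or H3f3b, the genes for H3.3. Each target had 7 libraries. The genotypes H3f3a_AA_H3f3b_WTWT, H3f3a_WTWT_H3f3b_AA and H3f3a_WTA_H3f3b_AA had 1 library each, H3f3a_AA_H3f3b_WTA had 2 from 2 clones, and Wildtype had 2. A genotype with 1 library is 1 biological replicate, and the labels name no allele change or treatment common to all groups. Targets were H3.3, H3K27ac and H3K122ac, and a further set of libraries had no primary antibody.

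The data are positions only, in one list of H3.3 regions and another of H3K27ac regions, each a consensus made by the authors. They hold no height, no score and no value per library. Mutant and wildtype cells therefore could not be compared, no error or depth stands behind a region, and no significance test was made. A region may have been present in wildtype cells, in mutant cells or in both. Most counts over the 9 genes are set beside the same share over all protein-coding genes, which include the 9. Motif counts are set beside all listed promoters, and counts split by gene end have no such share.

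In mammals DNA is methylated mostly at cytosines followed by guanine. DNMT3A and DNMT3B place new methyl groups, helped by DNMT3L, which has no catalytic activity of its own. After DNA replication UHRF1 recognises the half-methylated daughter strands and brings DNMT1 to copy the pattern. The dioxygenases TET1, TET2 and TET3 oxidise methylcytosine, and the glycosylase TDG cuts out the most oxidised forms so that base excision repair can restore cytosine. Mouse embryonic stem cells are known for expressing both the writers and TET1 and TET2. The variant H3.3 enters chromatin independently of DNA replication. Histone H3 acetylated at lysine 27, or H3K27ac, is found at active promoters and enhancers.

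H3K27ac regions lay at or in most of the 9 genes, and H3.3 regions in 4 of them. An H3K27ac region lay within 1 kb of a gene end in 7 of the 9 genes, against 38.8% of all protein-coding genes. Dnmt3a and Tet3 had none there. The region was at the 5′ end in 4 genes, Uhrf1, Tet1, Tet2 and Tdg, and at the 3′ end in 6. Dnmt1, Dnmt3b and Dnmt3l counted through the 3′ end alone. The share over all protein-coding genes was not split by end. An H3.3 region lay within 1 kb of a gene end in 1 of the 9, Uhrf1, against 16.0% of all protein-coding genes. Uhrf1 was also the gene with both marks at an end, 1 of 9 against 10.7%. Counted anywhere inside the gene, H3K27ac regions touched 8 of the 9 bodies, against 48.4%, and H3.3 regions touched 4 of the 9, against 16.1%. An H3.3 region lay in the window of 6 of the 9, against 41.3%. All 9 are longer than the median protein-coding gene, at 20.2 to 112.9 kb against 17169 bp. A longer gene has more bases for a region to touch, and counts over bodies and windows were not adjusted for length. The 4 bodies with H3.3 were those of Dnmt1, Uhrf1, Dnmt3l and Tet2, and the body without H3K27ac was that of Tet3.

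**Figure D1:**
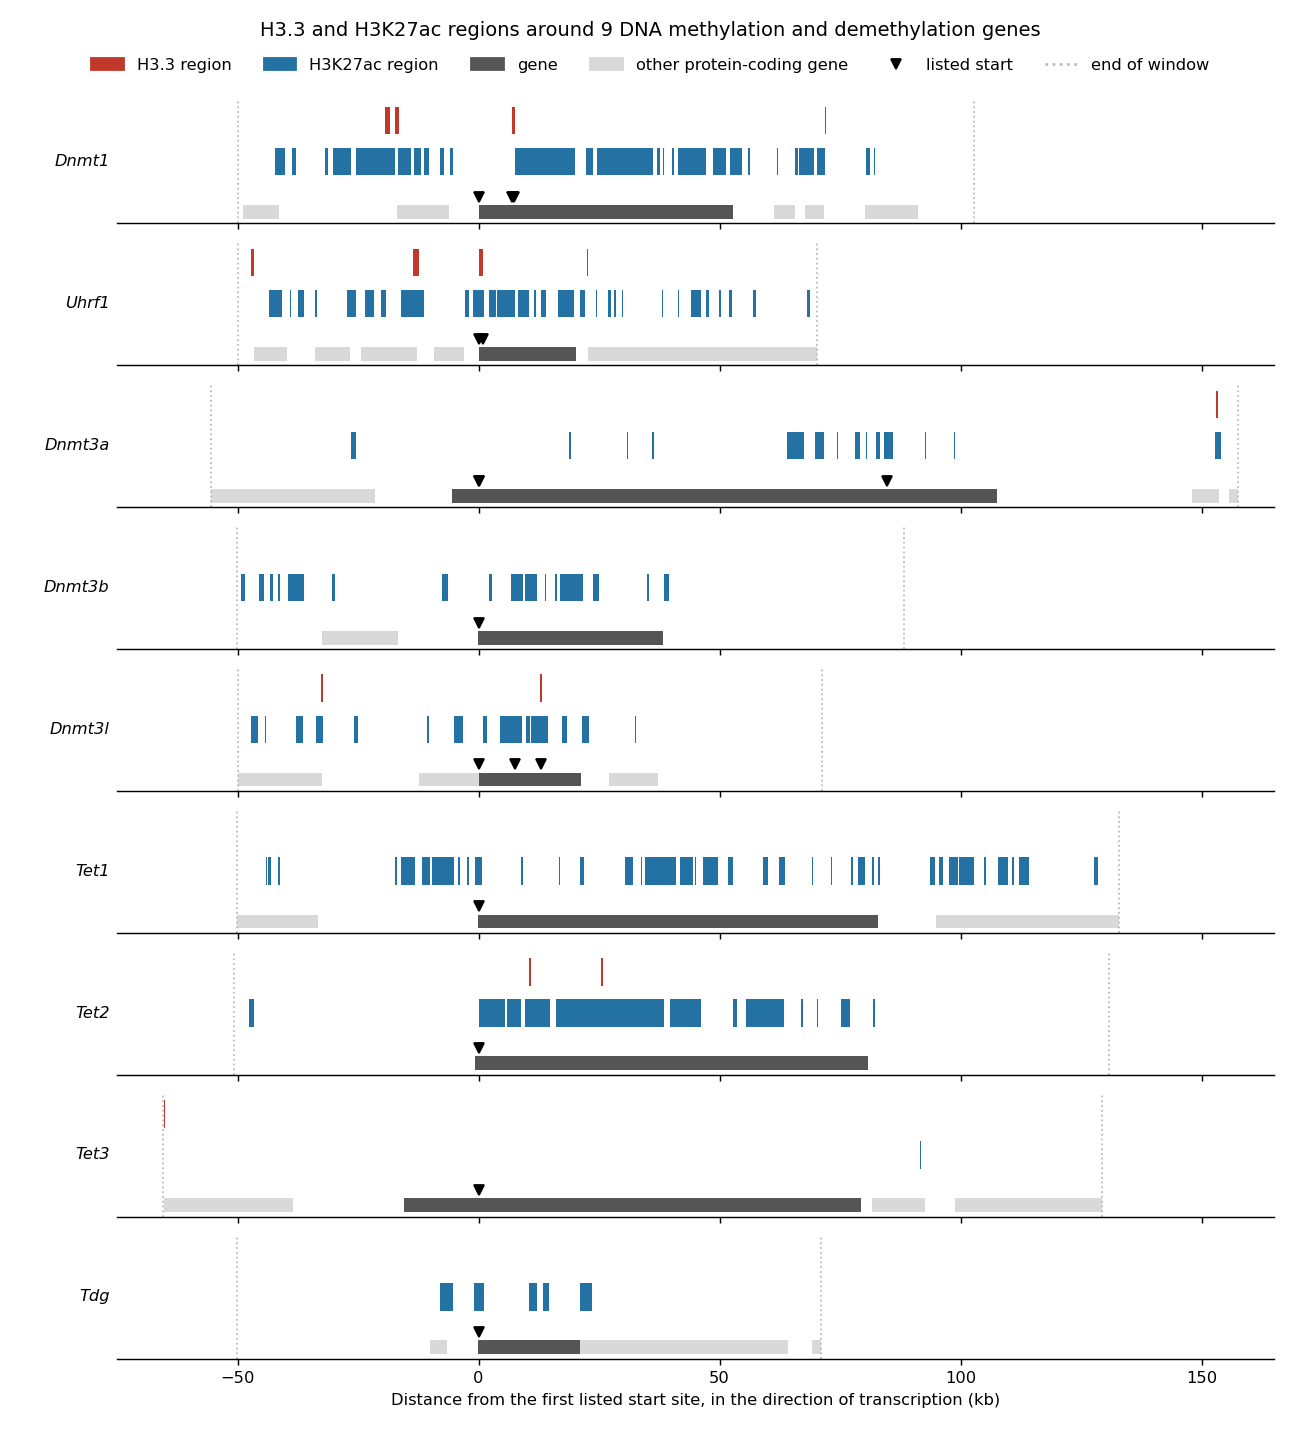
Positions of H3.3 regions (red) and H3K27ac regions (blue) around each gene, as distance in kb from the first listed start site along the direction of transcription. Dark bars are the 9 genes, pale bars other protein-coding genes, triangles listed start sites and dotted lines the ends of the windows. Tet2 holds most of its H3K27ac as long blocks inside the gene. Tet1 has 38 scattered regions in its window, 18 of them in its body, and Tet3 has 1 short region in its whole window.

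The table of start sites lists 16 starts for the 9 genes, with 1 to 3 per gene. It does not say which transcript uses a start. An H3K27ac region lay within 1 kb of a listed start in 7 of the 9 genes, against 36.2% of the 17492 protein-coding genes with a listed start. Here Dnmt3a enters, by an internal start, and Dnmt3b drops out. An H3.3 region lay within 1 kb of a listed start in 3 of the 9, Dnmt1, Uhrf1 and Dnmt3l, against 16.4%. A start was itself covered by an H3.3 region in the same 3 genes, 3 of 9 against 7.81%. H3K27ac covered a start in 5 genes, Uhrf1, Dnmt3a, Dnmt3l, Tet1 and Tdg, 5 of 9 against 19.1%. A gene with more listed starts has more places to count, and these shares were not adjusted for that. The 9 genes have 16 listed starts, and the 17492 genes have 21263. The 3 genes with H3.3 at a start have several each, 3 for Dnmt1, 2 for Uhrf1 and 3 for Dnmt3l.

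The promoter sequences that carry these differences follow, from RefSeq on GRCm38.p6, whose coordinates are those of mm10. Each runs 5′ to 3′ along its gene, from 250 bases before a listed start to 50 bases from the start on. Bases inside an H3.3 region are in capitals and all others in lower case. All 9 genes had promoters in that table. The pairs for Dnmt1 and Dnmt3a set an outer start against an inner one, Uhrf1 and Dnmt3l carry the other covered starts, and Tet1 and Tet3 set a start inside H3K27ac against one far from both marks.
Dnmt1 start 1, chr9:20959839-20960138, minus strand: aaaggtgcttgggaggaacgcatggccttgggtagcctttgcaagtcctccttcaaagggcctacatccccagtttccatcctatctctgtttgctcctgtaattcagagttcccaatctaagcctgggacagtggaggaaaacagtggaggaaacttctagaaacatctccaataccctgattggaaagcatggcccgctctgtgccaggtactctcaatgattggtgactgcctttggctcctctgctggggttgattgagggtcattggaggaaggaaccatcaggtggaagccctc
Dnmt1 start 3, chr9:20952574-20952873, minus strand: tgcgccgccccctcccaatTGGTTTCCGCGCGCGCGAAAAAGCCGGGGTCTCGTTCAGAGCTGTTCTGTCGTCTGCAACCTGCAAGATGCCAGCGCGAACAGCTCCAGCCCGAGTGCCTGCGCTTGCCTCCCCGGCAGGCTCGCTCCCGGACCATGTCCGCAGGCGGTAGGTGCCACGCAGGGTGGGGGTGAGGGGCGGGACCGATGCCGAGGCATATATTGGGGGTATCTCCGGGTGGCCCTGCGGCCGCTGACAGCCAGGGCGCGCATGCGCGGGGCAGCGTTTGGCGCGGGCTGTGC
Uhrf1 start 2, chr17:56304063-56304362, plus strand: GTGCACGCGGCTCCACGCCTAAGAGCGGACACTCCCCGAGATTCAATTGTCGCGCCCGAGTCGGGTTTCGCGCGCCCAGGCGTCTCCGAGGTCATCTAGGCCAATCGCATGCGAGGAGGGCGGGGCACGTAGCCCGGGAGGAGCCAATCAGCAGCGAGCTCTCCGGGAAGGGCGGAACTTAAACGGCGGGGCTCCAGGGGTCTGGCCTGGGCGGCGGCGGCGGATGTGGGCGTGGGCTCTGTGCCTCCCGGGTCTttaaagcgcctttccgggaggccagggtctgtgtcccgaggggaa
Dnmt3a start 1, chr12:3806730-3807029, plus strand: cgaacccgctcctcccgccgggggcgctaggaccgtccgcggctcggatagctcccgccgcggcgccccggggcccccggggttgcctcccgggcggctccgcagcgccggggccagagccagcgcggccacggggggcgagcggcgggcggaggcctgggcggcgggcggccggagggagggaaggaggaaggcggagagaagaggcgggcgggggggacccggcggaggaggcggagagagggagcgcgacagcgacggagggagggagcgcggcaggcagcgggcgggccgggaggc
Dnmt3a start 3, chr12:3891494-3891793, plus strand: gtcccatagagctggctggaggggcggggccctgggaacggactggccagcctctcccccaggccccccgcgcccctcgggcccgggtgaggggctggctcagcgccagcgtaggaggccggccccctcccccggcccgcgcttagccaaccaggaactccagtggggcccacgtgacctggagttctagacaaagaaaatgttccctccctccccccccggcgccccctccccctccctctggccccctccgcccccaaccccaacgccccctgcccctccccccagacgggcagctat
Dnmt3l start 3, chr10:78055085-78055384, plus strand: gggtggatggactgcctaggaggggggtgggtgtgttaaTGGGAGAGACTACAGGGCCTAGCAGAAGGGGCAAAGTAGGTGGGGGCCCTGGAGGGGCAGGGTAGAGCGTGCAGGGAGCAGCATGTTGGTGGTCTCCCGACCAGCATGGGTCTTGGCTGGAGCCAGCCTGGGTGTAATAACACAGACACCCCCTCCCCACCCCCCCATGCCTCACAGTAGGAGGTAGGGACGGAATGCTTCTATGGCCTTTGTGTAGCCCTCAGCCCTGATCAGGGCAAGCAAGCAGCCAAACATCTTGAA
Tet1, chr10:62887275-62887574, minus strand: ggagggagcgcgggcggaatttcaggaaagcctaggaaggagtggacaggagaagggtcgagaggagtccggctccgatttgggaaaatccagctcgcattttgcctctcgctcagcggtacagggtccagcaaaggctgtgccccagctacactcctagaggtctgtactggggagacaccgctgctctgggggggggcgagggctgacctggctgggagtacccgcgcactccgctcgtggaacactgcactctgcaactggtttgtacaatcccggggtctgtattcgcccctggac
Tet3, chr6:83441629-83441928, minus strand: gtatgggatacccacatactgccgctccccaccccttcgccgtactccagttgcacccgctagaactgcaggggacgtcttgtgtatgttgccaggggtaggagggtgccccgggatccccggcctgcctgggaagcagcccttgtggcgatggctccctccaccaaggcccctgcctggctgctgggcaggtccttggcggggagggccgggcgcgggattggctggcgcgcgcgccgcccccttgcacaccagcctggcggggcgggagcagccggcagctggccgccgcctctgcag

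The maintenance pair was widely covered by H3K27ac. Dnmt1, the maintenance methyltransferase, lies on the minus strand at chr9:20907206-20959888 and spans 52.7 kb. Its body held 10 H3K27ac regions that covered 67.6% of it, a larger share than in 97.4% of protein-coding genes. The regions within the body included 11662 bp, 9450 bp and 5680 bp stretches. The window as a whole was covered to 44.0%, more than in 99.3% of genes and the most among the 9. Of the 67.1 kb covered in the window, 35.6 kb lay in the body, and the window holds 6 other protein-coding genes.

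None of that acetylation reached the outer start of Dnmt1. Around this first start, at position 20959888, the nearest H3K27ac region lay 5.3 kb upstream and the nearest H3.3 region 7.0 kb downstream. In mice an outer start of Dnmt1 serves the oocyte form of the enzyme and the start used in somatic and stem cells lies inside it, but the table does not name the transcript of either. The third listed start, at 20952623, lies 7265 bp downstream of the first. It sat inside an H3.3 region of 479 bp at chr9:20952376-20952854, which held 281 of the 300 promoter bases. The 9450 bp H3K27ac region began beyond it, 355 bp downstream of the start, and a gap of 108 bp separated the 2 regions. The H3.3 region thus shared no base with H3K27ac, unlike the other 4 H3.3 regions in the 9 gene bodies.

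The outer Dnmt1 promoter and that of the third start, called the inner one here, also differ in sequence. The inner one has 33 CpG dinucleotides in 300 bases and an observed-to-expected CpG ratio of 0.91. The outer one has 2 CpG dinucleotides and a ratio of 0.1. The second start, at 20952979, also lies inside the gene. Its promoter has 12 CpG dinucleotides and a ratio of 0.5, and the H3.3 region began 125 bp downstream of that start. Among the 21263 listed promoters of protein-coding genes the median is 13 CpG dinucleotides and a ratio of 0.57.

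Uhrf1, which reads half-methylated DNA, lies on the plus strand at chr17:56303337-56323486 and spans 20.2 kb. It was the gene with both marks together at its 5′ end. An H3.3 region of 879 bp at chr17:56303439-56304317 lay wholly inside an H3K27ac region of 2160 bp at chr17:56302261-56304420. The H3K27ac region covered both listed starts, at 56303337 and 56304313. The H3.3 region began 102 bp downstream of the first and covered the second, including 255 of its 300 promoter bases. The second promoter, like the inner one of Dnmt1, has 33 CpG dinucleotides, with a ratio of 0.96, while the first has 12 and a ratio of 0.47. Further regions followed through the body, which was covered to 65.1%, more than in 97.1% of genes. Those inside the body measured up to 3757 bp.

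The de novo enzymes had their acetylation away from their outer starts. Dnmt3a, on the plus strand at chr12:3801559-3914443, is the longest of the 9 at 112.9 kb. Its first 2 starts, at 3806980 and 3807160, lie in very CpG-dense sequence, with 46 and 47 CpG dinucleotides. The nearest H3K27ac region to them was 18.7 kb and 18.5 kb downstream, and only 548 bp wide. The third start, at 3891744, lies 84.8 kb downstream of the first. It was inside an H3K27ac region of 1699 bp at chr12:3891152-3892850, which covered its whole printed promoter, although that promoter has 18 CpG dinucleotides and a ratio of 0.47. A short form of DNMT3A that starts inside the gene is known to be the main form in mouse embryonic stem cells, but the table does not tie that form to this start. The widest region of the body, 3605 bp, lay upstream of the third start, at -17.2 kb. Between the regions, Dnmt3a had a stretch of 27668 bp without H3K27ac, and its body was covered to 9.66%, more than in 74.9% of genes. No H3.3 region touched it.

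Dnmt3b, on the plus strand at chr2:153649411-153687730, had no mark at its single listed start. That start, at 153649449, has 30 CpG dinucleotides and a ratio of 0.69. The nearest H3K27ac region, 599 bp wide, lay 2261 bp downstream. The body still held 8 H3K27ac regions that covered 32.1% of it, more than in 89.6% of genes, with the widest, 4789 bp, 16.9 kb inside. A 973 bp region just past the 3′ end gave Dnmt3b its place among the 7 genes with H3K27ac at a gene end. No H3.3 region lay in its window, and the nearest was 204.1 kb from the start.

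Dnmt3l, the cofactor of the de novo enzymes, lies on the plus strand at chr10:78042287-78063622 and spans 21.3 kb. Its first start, at 78042287, lies within the overlapping gene Aire, and the nearest H3K27ac region was 1011 bp downstream of it, just past the 1 kb limit. The second start, at 78049842, was inside an H3K27ac region of 4600 bp. The third, at 78055335, was inside an H3.3 region of 267 bp at chr10:78055124-78055390, itself inside an H3K27ac region of 3611 bp at chr10:78053167-78056777. Both inner promoters are poor in CpG, with 4 and 3 dinucleotides, which sets the third start apart from the H3.3-covered starts of Dnmt1 and Uhrf1. H3K27ac covered 50.2% of the Dnmt3l body, more than in 94.6% of genes.

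**Figure D2:**
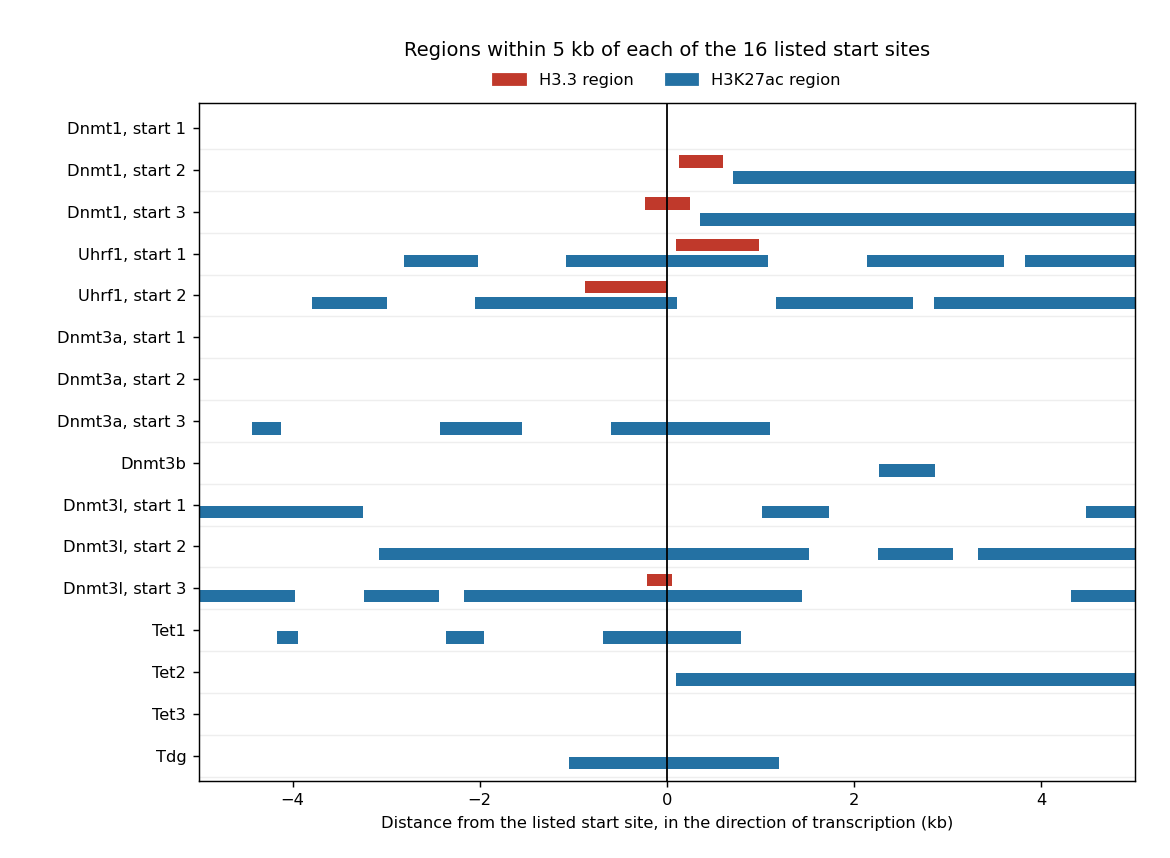
H3.3 regions (red) and H3K27ac regions (blue) within 5 kb of each of the 16 listed start sites, as distance in kb from the start along the direction of transcription. H3.3 regions cross the zero line at Dnmt1 start 3, Uhrf1 start 2 and Dnmt3l start 3. No region of either kind appears at the first start of Dnmt1, at starts 1 and 2 of Dnmt3a or at the start of Tet3.

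The 3 TET genes differed widely among themselves. Tet1, on the minus strand at chr10:62804570-62887469, had 38 H3K27ac regions in its 182.9 kb window, more than 99.5% of protein-coding genes. Of these, 18 lay in the Tet1 body, and some of the rest lay in the neighbours Ccar1 and Slc25a16. The Tet1 start, at 62887324, was inside a region of 1478 bp at chr10:62886531-62888008. A region of 4468 bp lay upstream at -5.2 kb, and the widest in the body, 6372 bp, 34.6 kb downstream. The body was covered to 27.4%, more than in 87.6% of genes, by 18 regions with a median width of 950.5 bp. No H3.3 region lay in the window, and the nearest was 169.9 kb from the start.

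Tet2, on the minus strand at chr3:133463677-133545136, has nearly the length of Tet1, 81.5 kb against 82.9 kb. Its 10 H3K27ac regions in the body covered 65.3% of it, more than in 97.2% of genes. They were fewer and longer than those of Tet1, with a median width of 4020 bp. The widest measured 22394 bp, at chr3:133505908-133528301, and ranked 29 among the 57844 H3K27ac regions on assembled chromosomes. It began 16.1 kb downstream of the start, which lies at 133544390. The start itself, the most CpG-dense of the 16 with 57 dinucleotides and a ratio of 1.17, was not covered. A region of 5316 bp began 92 bp downstream of it. The 2 H3.3 regions of Tet2, 351 bp and 221 bp wide, lay 10.5 kb and 25.5 kb downstream of the start. Each was wholly inside an H3K27ac region, of 5176 bp and of 22394 bp.

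Tet3, known for its role in the oocyte, the zygote and neurons, lies on the minus strand at chr6:83362373-83457208. No region of either list touched its 94.8 kb body. The nearest H3K27ac region to its start, at 83441678, was 91.6 kb away, a 213 bp region at the gene Bola3, and it was the sole H3K27ac region in the window. The sole H3.3 region, 240 bp, lay at the gene Dguok, 65.0 kb upstream. H3K27ac covered 0.109% of the window, a larger share than in 27.3% of protein-coding genes, among which 26.8% had none. Its promoter is not CpG-poor by count, with 22 dinucleotides, and the ratio is 0.58.

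Tdg, which removes the oxidised bases made by the TET enzymes, lies on the plus strand at chr10:82629814-82650799. An H3K27ac region of 2242 bp at chr10:82628791-82631032 covered its start, at 82629838, and the body held 2 more, of 1656 bp and 1166 bp. They covered 19.3% of the body, more than in 83.2% of genes. The region of 2447 bp past its 3′ end lay at the gene Glt8d2 as well, which overlaps that end. No H3.3 region lay in the window, and the nearest was 139.4 kb from the start.

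Across the 9 bodies, 4 genes were above the 90th percentile of all protein-coding genes in H3K27ac cover. These were Dnmt1, Uhrf1, Dnmt3l and Tet2. Over the windows 4 were above it, Dnmt1, Uhrf1, Tet1 and Tet2. The median protein-coding gene had 0% of its body and 2.84% of its window covered. The 156 regions in the windows had a median width of 975.5 bp and the 73 in the bodies 1166 bp, against 812 bp over the whole list. In all, 271.5 kb of the 1425.6 kb in the windows was covered, which is 19.0%.

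**Figure D3:**
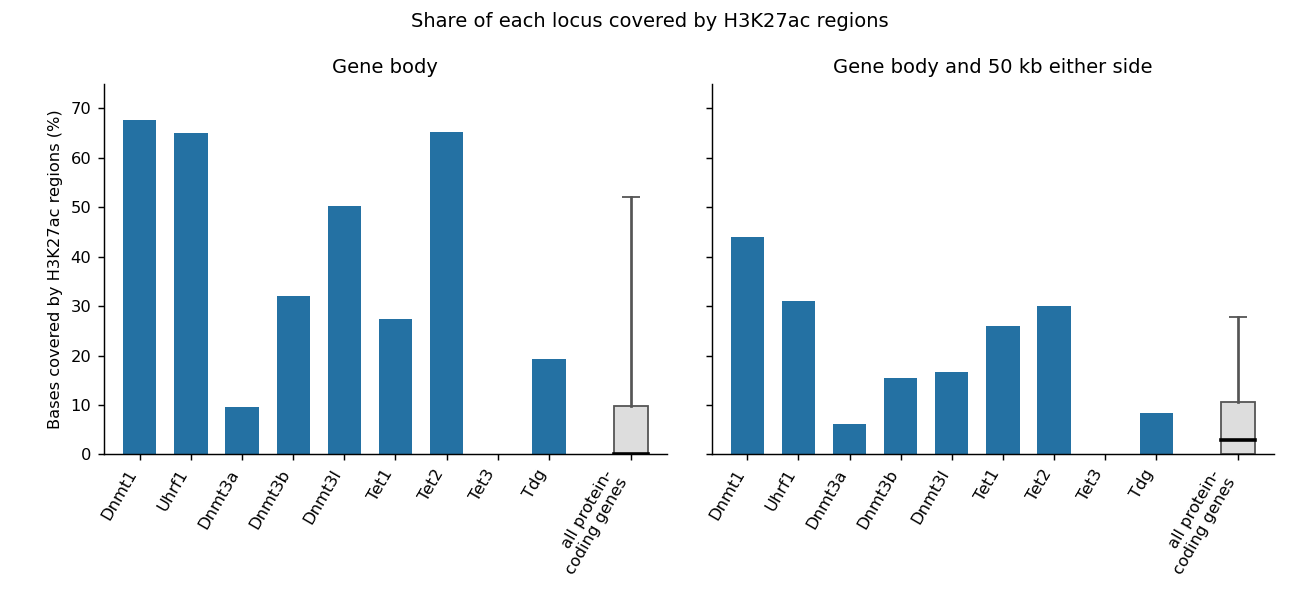
Percentage of bases covered by H3K27ac regions in the gene body (left) and in the body with 50 kb either side (right), on an axis from 0. Each blue bar is 1 gene. The grey box runs over the middle 50% of all 21887 protein-coding genes, with its median as a thick line and a whisker to the 95th percentile, which is 52.0% for bodies and 27.7% for windows. Bars of Dnmt1, Uhrf1 and Tet2 pass the whisker in both panels, and Tet3 has 0% in the body.

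Of the 14 H3.3 regions in the windows, 5 were in the 9 bodies and 9 in the flanks, which make up 63.1% of the windows' length. Of the 9 in the flanks, 8 were within 1 kb of the end of a neighbouring protein-coding gene. Of all H3.3 regions, 57.8% lay within 1 kb of an end of a protein-coding gene. Near Dnmt1 these neighbours were Ppan, a ribosome biogenesis gene, with 197 bp, and S1pr2, a receptor for sphingosine 1-phosphate, with 832 bp. The ninth flank region, 890 bp, lay beyond S1pr2 at no neighbour's end. Near Uhrf1 they were Fem1a with 702 bp, the lipid droplet gene Plin3 with 1210 bp, and Kdm4b, a histone lysine demethylase, with 224 bp. The hormone precursor gene Pomc near Dnmt3a had 208 bp, the phosphofructokinase gene Pfkl near Dnmt3l 602 bp, and Dguok near Tet3 240 bp. Dnmt3b, Tet1 and Tdg had no H3.3 region in the window.

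The H3.3 regions of the windows touched H3K27ac in 10 of 14 cases, against 47.5% of all H3.3 regions. The 4 that did not were those at the inner Dnmt1 start, Fem1a, Kdm4b and Dguok. Widths of the 14 ran over 197 to 1210 bp with a median of 415 bp, against a median of 451.5 bp over the whole list. Of the 83 H3K27ac regions in the flanks, 23 were within 1 kb of a neighbour's end, and another 23 were neither there nor inside a neighbour. Of all H3K27ac regions, 17.9% were at an end of any protein-coding gene, a share that is not limited to flanks.

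Marked starts were found in both CpG-rich and CpG-poor sequence. A promoter was counted as CpG-rich at a GC content of at least 55% and an observed-to-expected CpG ratio of at least 0.65, which held for 38.0% of listed starts of protein-coding genes. By that rule 7 of the 16 starts are CpG-rich. Of these 7, 4 had an H3K27ac region within 1 kb, against 55.5% of all CpG-rich starts, and 2 had an H3.3 region, against 27.7%. These shares are near the background. Of the 9 other starts, 6 had H3K27ac within 1 kb, against 23.3% of all starts that are not CpG-rich, and 3 had H3.3, against 9.04%. Starts of 1 gene can share a region, as the second and the third of Dnmt1 and both of Uhrf1 did, so they are not independent. The CpG-rich starts without either mark were the first 2 of Dnmt3a and that of Dnmt3b.

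Both strands of each promoter were searched for 4 short motifs, chosen after the sequences had been seen. The shares given beside them are over 32851 listed promoters, of which 9219 are CpG-rich. Unlike the promoters above, these are not limited to protein-coding genes. The E2F words TTTCGCGC and TTTGGCGC, which have the pattern bound by the cell cycle factors of that name, occur in 0.813% of the 32851 listed promoters and in 1.87% of the CpG-rich ones. Among the 16 promoters they occur in 2, both of the maintenance pair and both under H3.3. The inner Dnmt1 promoter holds GCGCGAAA, the reverse complement of the first word, at position -219 from the start, and TTTGGCGC at position 33, where 0 is the start base and a position is that of the first base of the word. The second Uhrf1 promoter holds TTTCGCGC at position -185. The E-box CACGTG occurs in 7.15% of promoters, in 11.6% of the CpG-rich ones and in 3 of the 16, each covered by H3K27ac, which are the third of Dnmt3a, the second of Dnmt3l and that of Tdg. The word GGGCGG occurs in 35.7% of promoters, in 79.6% of the CpG-rich ones and in 12 of the 16. The first 2 Dnmt3a starts are 180 bp apart, so their promoters share bases and some copies of GGGCGG count in both. CCAAT occurs in 37.4% of promoters, in 34.0% of the CpG-rich ones and in 6 of the 16. CCAAT overlaps its reverse complement at the inner Dnmt1 promoter and the first of Uhrf1, and copies of GGGCGG overlap at the second of Dnmt3a. The E2F words and the E-box overlap no other motif searched. A match describes the letters alone, and binding was not measured.

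The partners of these enzymes were read from 6 lists with 50 genes in all, by regions within 1 kb of either gene end. H3K27ac was there at 39 of the 50 and H3.3 at 8, against 38.8% and 16.0% of all protein-coding genes. Both marks were present at 7 and neither at 10.

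Partners of maintenance and genes that protect imprints had H3K27ac at 9 of 10. The widest regions were at Hells, a chromatin remodeller needed for DNA methylation, with 9627 bp, and Zfp57, a zinc finger protein that guards imprints, with 8415 bp. Uhrf2, a relative of Uhrf1, had 4055 bp and Cdca7, a partner of HELLS, 3524 bp. H3.3 was at 2, Trim28, the corepressor recruited by ZFP57, with 954 bp, and the replication clamp gene Pcna with 351 bp. Dppa3, which counteracts UHRF1, had neither mark at an end.

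Enzymes of chromatin that guide de novo methylation had H3K27ac at 6 of 6 and H3.3 at 3. Those with H3.3 were the histone H3 lysine 36 methyltransferase genes Nsd1 with 514 bp and Setd2 with 244 bp, and the lysine 4 demethylase gene Kdm1b with 496 bp. Their H3K27ac regions measured 3671, 3175 and 375 bp. Ehmt1, a lysine 9 methyltransferase gene, had 2685 bp of H3K27ac.

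Readers of methylated DNA had H3K27ac at 7 of 10 and H3.3 at 1, Mbd6, with 1283 bp. The widest H3K27ac regions were 3638 bp at Mbd3, which encodes a subunit of the NuRD complex, 3552 bp at Mbd5, 3465 bp at Mbd6 and 2259 bp at the glycosylase gene Mbd4. Mbd1, Mbd2 and Zbtb38 had neither mark at an end.

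Base excision repair genes had H3K27ac at 7 of 9 and H3.3 at 0. The widest H3K27ac regions were 3802 bp at the ligase gene Lig3, 3462 bp at Parp1, 2597 bp at the endonuclease gene Apex1 and 2532 bp at the glycosylase gene Neil1. The polymerase gene Polb and the glycosylase gene Smug1 had neither mark at an end.

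Partners of the TET enzymes, cofactor enzymes and deaminases had H3K27ac at 6 of 10. The widest were at Idh2, which makes the cosubstrate of the TET enzymes in mitochondria, with 6992 bp, and at Gadd45a with 3176 bp. Idh1, its cytosolic relative, had 2116 bp and the cytidine deaminase gene Apobec1 977 bp. Gadd45b had an H3.3 region of 621 bp and no H3K27ac, and Cxxc4 and Gadd45g had neither mark at an end.

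Genes for the supply of methyl groups had H3K27ac at 4 of 5. Among them were Mat2b with 5380 bp, the S-adenosylhomocysteine hydrolase gene Ahcy with 2580 bp, and the methionine synthase gene Mtr with 1269 bp. Mat2a, the catalytic subunit of the enzyme that makes S-adenosylmethionine, had neither.

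**Figure D4:**
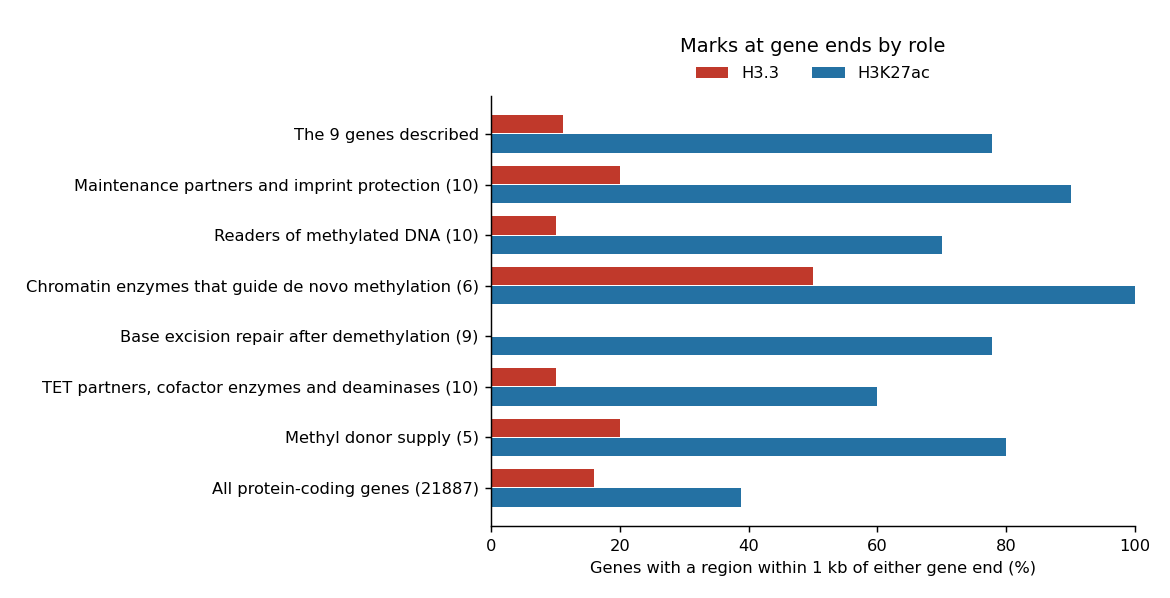
Percentage of genes with an H3.3 region (red) or an H3K27ac region (blue) within 1 kb of either gene end, on an axis from 0 to 100%, with the number of genes of each list in brackets. The 9 genes are at the top, the 6 partner lists below them and all protein-coding genes at the bottom. Base excision repair has no H3.3 bar, and the H3K27ac bar is longer than that of all protein-coding genes in every list.

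The label of the cells was checked at gene ends with marker lists. H3K27ac was present at 14 of 14 embryonic stem cell markers, at 1 of 8 fibroblast markers (Thy1, 213 bp), at 0 of 7 primitive endoderm markers and at 0 of 5 trophoblast markers. H3.3 was present at 6 of the stem cell markers, 1 fibroblast marker, 4 of primitive endoderm and 2 of trophoblast. Of all protein-coding genes, 38.8% had H3K27ac and 16.0% had H3.3 at a gene end. The H3.3 share was 57.1% for primitive endoderm and 42.9% for stem cell markers, so H3.3 did not set the stem cell list apart. The regions came from all cells of a culture, so a mark in few cells and a weak mark in all cells cannot be told apart.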

How the data were processed

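CUT&RUN libraries of H3.3, H3K27ac, H3K122ac and a control without antibody were made from E14 cells. Per the labels' protocols, H3K27ac and H3K122ac used a protein A nuclease, H3.3 a protein A/G nuclease, and the buffer that ended digestion had another salt content for H3K27ac than for the rest. The lists are thus compared by position alone. The submitters' processing notes name the build mm10 and the tools Bowtie2, SAMtools, deepTools and MACS2, with no version and no role. The method by which regions were called and joined is not given in the sources used here.

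For each region the authors deposited chromosome, start and end, without values per library. Genotypes, H3K122ac and libraries without antibody were therefore not analysed here. Columns of other samples numbered 0. Starts were raised by 1. Regions off the 21 assembled chromosomes, 16 of H3.3 and 13 of H3K27ac, were left out. Genes, starts and promoters came from RefSeq (GRCm38.p6), without exons or UTRs. Overlap meant 1 bp or more. A percentile is the share of protein-coding genes with a lower value. Tools were Python 3.11.15, numpy 2.4.6, pandas 2.3.3 and matplotlib 3.10.9. Interval arithmetic was tested on simulated data.

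The 9 genes and all lists were chosen with earlier results of these data known. Named genes were the 9, neighbours with a region at an end, and up to 4 genes per list with the widest region of each mark and up to 4 without; a few of these are not reported here. Alternatives changed windows, overlap rules, the width of regions and the use of starts.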

Additional observations from a re-analysis of the deposited data

How the results depend on the processing

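The number of the 9 genes with H3K27ac at a gene end was 7, and 6 or 7 under every alternative, which were windows of 500 bp and 2.5 kb, region centres, the wider 50% of regions and listed starts alone. Tet2 dropped out at 500 bp and with region centres. With listed starts alone, Dnmt3a entered and Dnmt3b left. H3.3, and both marks together, were at 1 gene, Uhrf1, under all of these except listed starts alone, where each count was 3 (Dnmt1, Uhrf1 and Dnmt3l), because that window also takes starts inside a gene.

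Counts in the windows moved with their size and with the number of regions kept. H3.3 regions numbered 14, and 6 with 10 kb either side, 18 with 100 kb, 5 in bodies alone and 7 with the wider 50%. H3K27ac regions numbered 156, and 94, 204, 73 and 88 in the same order. H3K27ac covered 19.0% of the windows, and 26.8%, 13.4%, 30.9% and 17.0%. H3.3 regions touching H3K27ac numbered 10, and 9 when 50% of the region had to be covered and 12 within 500 bp. Depth is unknown, so a missing region shows only that none was listed. No paired analysis was possible because the lists hold no value per library.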
